A study of Coprinopsis cinerea AmutBmut pab1-1 with 7 samples.

Results

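In the ink cap mushroom *Coprinopsis cinerea*, 13 genes were close to silent in wild-type mycelium and gave reads in every library of both *cre1* deletion strains. They were chosen from the 14242 genes of the deposited count table by 2 limits, a count of 3 or lower in each of the 3 wild-type libraries and a count of 10 or higher in each of the 4 mutant libraries. In all, 15 genes met both limits, and 2 of these were among 9 genes left out by name. The counts that chose the 13 genes are given below as a description; the calls against wild type from the fit over all genes are counted once, and nothing is read from them.

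Compared were the libraries labelled Δ*cre1*-43 (n = 2) and Δ*cre1*-91 (n = 2), set against wild type, the control strain *C. cinerea* AmutBmut pab1-1 (n = 3). Each mutant strain is 1 transformant of that strain, made with preassembled Cas9 ribonucleoprotein and a split *pab1* cassette, so that both mutants also carry a *pab1* marker that wild type, a para-aminobenzoic acid auxotroph, lacks. The deletion of *cre1* and the gain of *pab1* therefore cannot be told apart here. All colonies were grown in the dark for 84 h at 28 °C on cellophane over YMG medium with 0.2% glucose, and polyadenylated RNA of the vegetative mycelium was sequenced from its 3′ end with QuantSeq. The labels do not say whether the libraries of a strain came from separate cultures, so every P value below measures the spread between these libraries, which may be technical. The labelled tissue was not checked, since no marker gene of mycelium is annotated in the sources used here.

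The mutant libraries held 6232853 to 8514379 assigned counts and the wild-type libraries 10196878 to 10784958, so a count of 3 was worth 0.277 to 0.451 CPM (the count as a rate per scaled library size) depending on the library. The targeted gene did not check the labels. *cre1* had 58 and 69 counts in Δ*cre1*-43, 67 and 49 in Δ*cre1*-91, and 94.5, 81 and 122 in wild type. Its log2 fold change was -0.14 in Δ*cre1*-43 (adjusted P = 0.851, edgeR) and -0.33 in Δ*cre1*-91 (adjusted P = 0.495). By PCR screens and sequencing of junction fragments, the study placed the *pab1* cassette at the *cre1* locus in both strains. It still amplified a small internal *cre1* fragment from both at a high number of PCR cycles. The study held both to be deletion mutants, citing also its QuantSeq results and the upregulation of carbohydrate metabolism genes. Where along *cre1* the reads fell cannot be read from the counts. "Mutant" below therefore means a library that carries a Δ*cre1* label.

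Cre1 is a C2H2 zinc finger repressor of fungi that acts in carbon catabolite repression: while glucose is at hand, genes for the use of other carbon sources are kept low. In filamentous fungi its targets include secreted enzymes that cut plant cell wall polymers and transporters that take up the released sugars. Plant cell walls hold cellulose, hemicelluloses such as xylan, and pectin, each of which needs its own enzymes.

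The annotation used here named 5 of the 13 genes, and their products were a pectate lyase, a protein with a cellulose-binding module, a xylanase, a major facilitator superfamily (MFS) transporter and a transposase. The other 8 had no annotation in the sources used here. Only part of the study's domain annotation was at hand, 1999 rows. Of the named genes, all but the pectate lyase were annotated from the study's lists of genes changed in these samples. The make-up of the named genes therefore partly reflects the sources. Summed over the 13 genes, the level was 97.5 and 103 CPM in the Δ*cre1*-43 libraries and 78.3 and 61.6 CPM in the Δ*cre1*-91 libraries, against 1.11, 1.17 and 1.21 CPM in the wild-type libraries. Of the 39 wild-type values behind that sum, 13 were exactly 0 and 3 sat exactly at the limit of 3. In bulk mycelium, more cells with a transcript and more transcript per cell cannot be told apart.

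**Figure D1:**
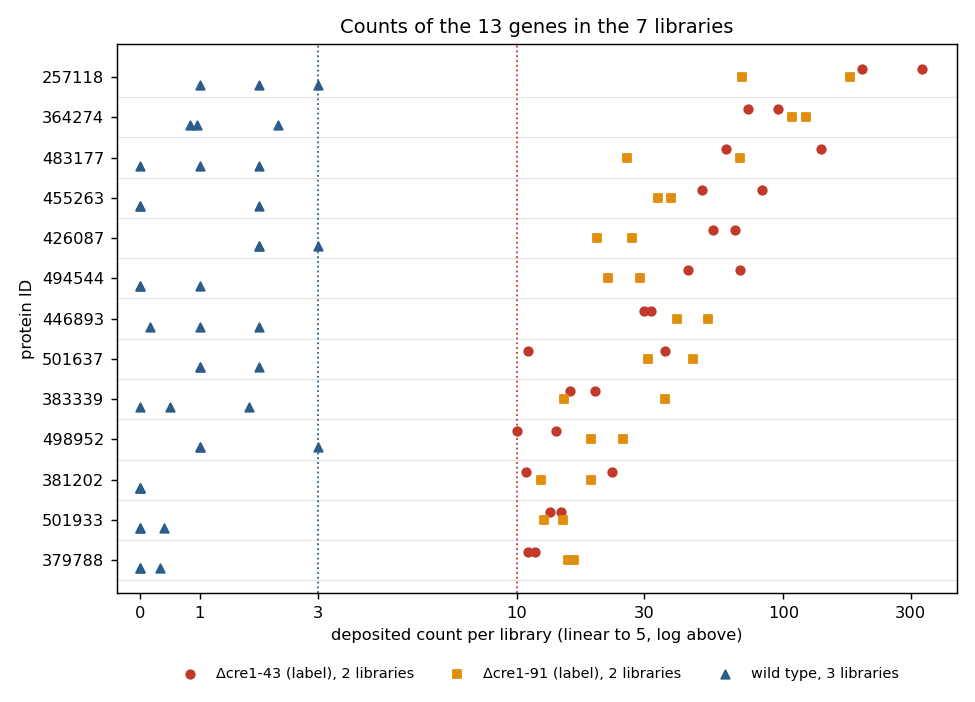
Deposited counts of the 13 genes (rows, protein IDs) in the 4 mutant and 3 wild-type libraries, 1 symbol per library, on an axis that is linear to 5 and logarithmic above. The dotted lines are the limits of 3 and 10 counts; mutant counts run between 10 and 331, and wild-type counts between 0 and 3.

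In the edgeR fit over all genes, 13 of 13 were called higher (adjusted P of 0.05 or lower and at least 2-fold) in Δ*cre1*-43 and 13 of 13 in Δ*cre1*-91, where 4.82% of all genes were called higher in Δ*cre1*-43 and 4.97% in Δ*cre1*-91; the limits fixed this direction, and nothing is read from it. Folds are given below as ratios of summed rounded counts on scaled library sizes. Their 95% intervals, like the lower bounds for genes with no wild-type count, cover counting error only.

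Protein 257118, annotated by its domains as a pectate lyase of the PlyH/PlyE type, was read more often in every mutant library than in any wild-type library. Pectate lyases cut the polygalacturonate backbone of pectin. It had 198 and 331 counts in Δ*cre1*-43 and 178 and 70 in Δ*cre1*-91, against 3, 1 and 2 in wild type. The means were 34.4 ± 6.65 CPM in Δ*cre1*-43 and 15.8 ± 9.63 CPM in Δ*cre1*-91 (SD, n = 2 each), against 0.187 ± 0.0899 CPM in wild type (SD, n = 3). Its ratio to wild type was 186-fold in Δ*cre1*-43 (95% interval 84.8 to 509) and 83.9-fold in Δ*cre1*-91 (38.0 to 231). The gene lies on scaffold 70 of the JGI Amut1Bmut1 genome at 75970 to 77866, minus strand, with 14 exons, and it was not in the study's list of plant cell wall enzymes. Its model overlaps 472156 on the other strand, which had 267 and 261 counts in Δ*cre1*-43 and 188 and 209 in Δ*cre1*-91, against 224, 213 and 229 in wild type. The overlapping gene was thus well read in wild type, where 257118 stayed at 3 counts or lower; its log2 fold change was 0.76 in Δ*cre1*-43 (adjusted P = 0.00863, edgeR), under the 2-fold limit.

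Protein 494544 carries a carbohydrate-binding module of family 1 (CBM1), a small domain that holds fungal enzymes to cellulose, and the study listed it under cellulose. It had 44 and 69 counts in Δ*cre1*-43 and 29 and 22 in Δ*cre1*-91, against 0, 1 and 0 in wild type. The single wild-type read leaves its fold poorly set: 238-fold in Δ*cre1*-43 with a 95% interval of 41.9 to 9493, and 104-fold in Δ*cre1*-91 with an interval of 17.8 to 4169. The model (scaffold 14, 138690 to 139935, minus strand, 4 exons) overlaps no other model, and all 7 counts are whole.

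The list of plant cell wall degrading enzymes was drawn up by the study on these same samples, so its direction is not independent evidence. It holds 17 genes with a CBM1, of which 15 were called higher in Δ*cre1*-43 and 16 in Δ*cre1*-91, with median log2 fold changes of 3.42 and 3.28. Only 494544 among them belongs to the 13. The family's other near-silent gene in wild type was 1 of the genes left out by name, and the rest had a wild-type count above 3 in at least 1 library.

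Protein 446893 is a glycoside hydrolase of family 11 (GH11), the family of endo-xylanases that cut the xylan backbone of hemicellulose. It had 30 and 32 counts in Δ*cre1*-43 and 40 and 52 in Δ*cre1*-91, against 2, 0.17 and 1 in wild type. The ratio was 43.6-fold in Δ*cre1*-43 (95% interval 14.2 to 217) and 62.3-fold in Δ*cre1*-91 (20.6 to 307). It lies on scaffold 427 at 12708 to 13874, minus strand, with 2 exons, as the last of 7 models there. The model overlaps 446891 on the same strand, which had 7 counts or fewer in every library.

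Of the 5 listed GH11 genes, 4 were called higher in both mutants, 446893 included. The others of these had more reads in wild type than 446893. Gene 491702 had 1767 and 1926 counts in Δ*cre1*-43 and 1270 and 1257 in Δ*cre1*-91, against 349.5, 239 and 91 in wild type. Gene 429661 had 65 and 93 counts in Δ*cre1*-43 and 113 and 103 in Δ*cre1*-91, against 45, 42 and 56 in wild type. The gene that was not called higher, 546727, had 0 and 0 counts in Δ*cre1*-43 and 5 and 1 in Δ*cre1*-91, against 4, 11 and 18 in wild type, so 1 GH11 gene had its higher counts on the wild-type side.

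Of the 82 listed plant cell wall genes, 7 were at 3 counts or lower in every wild-type library, 4 met both limits and 2 belong to the 13. The study's other lists added 1 gene from 54 transporters, 1 from 31 transcription factors and 0 from 19 fungal cell wall genes. All these lists hold only genes that the study found changed in these same samples, so the counts are not shares of whole gene classes. Over the whole table, 15 of 14242 genes met both limits.

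The transporter was protein 501637, an MFS protein, from the large class of carriers that move sugars and other small solutes across membranes. It had 11 and 36 counts in Δ*cre1*-43 and 46 and 31 in Δ*cre1*-91, against 1, 1 and 2 in wild type. The first Δ*cre1*-43 library was the lowest of the mutant libraries and lay 2.58-fold below its replicate on scaled sizes. The ratio to wild type was 24.8-fold in Δ*cre1*-43 (95% interval 9.06 to 94.7) and 39.1-fold in Δ*cre1*-91 (14.7 to 147). It lies on scaffold 231 at 10349 to 13243, minus strand, with 15 exons. Its model overlaps 517232 on the same strand, which had 3 counts or fewer in every library. Genes 121985 and 501639, each 2 models away on either side, were called higher in Δ*cre1*-91 (adjusted P = 0.00263 and 0.000338, edgeR). Around all the chosen genes, 45 models lay within 2 places in gene order, and 3 of these were called higher in at least 1 mutant. Over all genes, 6.59% were called higher in at least 1 mutant, so nothing is read from the place of 121985 and 501639. Gene 121985 had 32 and 68 counts in Δ*cre1*-43 and 109 and 66 in Δ*cre1*-91, against 50, 41 and 41 in wild type. Gene 501639 had 34 and 84 counts in Δ*cre1*-43 and 119 and 125 in Δ*cre1*-91, against 66, 38 and 43 in wild type. Both were low in the first Δ*cre1*-43 library, as 501637 was, but they were well read in wild type.

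The gene listed as a transcription factor was protein 383339, with a C2H2 zinc finger domain and a domain of Plavaka transposases, the enzymes of a group of DNA transposons. It had 19.6 and 15.8 counts in Δ*cre1*-43 and 15.1 and 35.9 in Δ*cre1*-91, against 0.5, 1.83 and 0 in wild type. The ratio was 38.0-fold in Δ*cre1*-43 (95% interval 9.77 to 325) and 51.8-fold in Δ*cre1*-91 (13.6 to 439). The gene is the middle of 3 models on scaffold 537 (993 to 4983, minus strand, 14 exons), and neither of the other two had more than 1 count in any library. Its counts were not whole in most libraries although the model overlaps no other. How reads that align to several places were counted is not given in the sources used here, transposase genes often have near-identical copies, and the gene that gave the reads is uncertain.

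Another 4 genes, with no annotation, had whole or nearly whole counts. Protein 483177 had 61 and 139 counts in Δ*cre1*-43 and 69 and 26 in Δ*cre1*-91, against 1, 0 and 2 in wild type, a ratio of 141-fold in Δ*cre1*-43 (95% interval 47.4 to 687) and 64.3-fold in Δ*cre1*-91 (21.3 to 317). Protein 455263 had 83 and 49.5 counts in Δ*cre1*-43 and 38 and 34 in Δ*cre1*-91, against 0, 2 and 0 in wild type, a ratio of 140-fold in Δ*cre1*-43 (38.1 to 1170) and 73.1-fold in Δ*cre1*-91 (19.5 to 615). Both are models of 1 exon that overlap no other model, on scaffold 339 (14450 to 15701, minus strand) and scaffold 24 (127738 to 128857, plus strand). The replicates of 483177 lay 2.63-fold apart in Δ*cre1*-91, the widest gap among the 13 genes.

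Protein 426087 had 54.5 and 66 counts in Δ*cre1*-43 and 20 and 27.1 in Δ*cre1*-91, against 3, 2 and 2 in wild type. Its Δ*cre1*-43 counts were all above its Δ*cre1*-91 counts. The ratio to wild type was 36.1-fold in Δ*cre1*-43 (95% interval 17.0 to 91.8) and 13.6-fold in Δ*cre1*-91 (6.12 to 35.7). Protein 498952 had 14 and 10 counts in Δ*cre1*-43 and 19 and 25 in Δ*cre1*-91, against 1, 1 and 3 in wild type. This gene sat at both limits at once, with a ratio of 10.1-fold in Δ*cre1*-43 (95% interval 3.79 to 34.0) and 17.9-fold in Δ*cre1*-91 (7.10 to 57.7). Gene 426087 has 12 exons on scaffold 96 (47702 to 50356, minus strand), and 498952 has 6 on scaffold 102 (40453 to 41810, minus strand). The model of 426087 overlaps 479585 on the same strand, and that of 498952 overlaps 437234 on the other strand.

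In 5 of the 13 genes the counts were not whole in 3 or more libraries. Besides 383339 these were 364274, 381202, 501933 and 379788, none with an annotation. Protein 364274 had 95.8 and 73.6 counts in Δ*cre1*-43 and 122 and 108 in Δ*cre1*-91, against 0.83, 2.33 and 0.95 in wild type, a ratio of 89.6-fold in Δ*cre1*-43 (95% interval 34.4 to 333) and 117-fold in Δ*cre1*-91 (45.0 to 432). It is the first of 57 models on scaffold 39 (2743 to 3649, plus strand, 1 exon) and overlaps 394368 on the other strand. Gene 394368 had 292 and 235 counts in Δ*cre1*-43 and 339 and 369 in Δ*cre1*-91, against 413, 405 and 366 in wild type. Gene 394368 was thus well read in wild type, where 364274 had 2.33 counts at most, and it was not called in either mutant. The strand setting of the counting is not given in the sources used here, so reads of overlapping genes on opposite strands cannot be told apart.

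In the remaining 3, wild-type counts all round to 0, so no ratio of counts can be formed. The folds below are set against 3 counts over the summed wild-type libraries, with the mutant counts as observed. Protein 381202 (scaffold 362, 1199 to 5167, minus strand, 11 exons) had 10.8 and 22.7 counts in Δ*cre1*-43 and 12.3 and 19 in Δ*cre1*-91, against 0, 0 and 0 in wild type. Against the 3 counts its level was 23.9-fold higher in Δ*cre1*-43 and 21.0-fold higher in Δ*cre1*-91. Protein 501933 (scaffold 253, 34859 to 36407, plus strand, 2 exons) had 14.7 and 13.3 counts in Δ*cre1*-43 and 12.7 and 14.9 in Δ*cre1*-91, against 0, 0.39 and 0 in wild type. Set against 3 counts, the level was 19.7-fold higher in Δ*cre1*-43 and 18.9-fold higher in Δ*cre1*-91. Protein 379788 (scaffold 300, 5487 to 10827, minus strand, 11 exons) had 11.7 and 11 counts in Δ*cre1*-43 and 15.5 and 16.4 in Δ*cre1*-91, against 0.33, 0 and 0 in wild type. By the same measure its level was 16.2-fold higher in Δ*cre1*-43 and 21.7-fold higher in Δ*cre1*-91. These genes gave few reads in the mutants as well, and the 4 mutant libraries of 501933 and of 379788 lay close together.

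Counts that are not whole moved with the labels over the whole table. The share of genes with a count that is not whole was 26.1% and 31.8% in the Δ*cre1*-43 libraries and 18.1% and 26.7% in the Δ*cre1*-91 libraries, against 13.5%, 14.1% and 12% in the wild-type libraries. The part of this difference in the values of these 5 genes was not tested. Those 5 all lay within 3 models of a scaffold end, against 1 of the other 8. The smallest of their scaffolds held only 3 models. The share of all genes within 3 models of an end was not counted, so nothing is read from this. Among the first or last 2 models of a scaffold were 19.0% of all genes and 40.7% of the other genes near-silent in wild type. A count that is not whole in 3 or more libraries was found in 38.5% of the 13 genes and in 19.9% of all genes.

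The 2 mutants were compared with each other. The limits did not set the sign of this difference, but they asked for a count of 10 or higher in each mutant library. Genes silent in either mutant could therefore not be among the 13, which favours agreement between the mutants. A low number of calls among the 13 is not evidence that the mutants agree. Of the 13 genes, 0 were called different between the mutants in the edgeR fit, where 0.246% of all genes (35 of 14242) were called in either direction. DESeq2 also called 0 of the 13, with 68 of 14242 genes called. limma voom called 0 of all 14242 genes, so its 0 of the 13 was fixed and nothing is read from it. The fitted level was higher in Δ*cre1*-43 for 7 of the 13 genes and in Δ*cre1*-91 for 6.

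An unadjusted P under 0.05 was found for 5 of the 13, all with the higher level in Δ*cre1*-43. Over all genes, 1594 of 14242 had such a P. How those genes split between the mutants was not counted, so nothing is read from the shared direction of the 5. Protein 426087 differed by a log2 fold change of 1.40 ± 0.40 (SE, 95% interval 0.56 to 2.25, adjusted P = 0.141, edgeR). The pectate lyase 257118 differed by 1.13 ± 0.32 (0.45 to 1.80, adjusted P = 0.141) and the CBM1 protein 494544 by 1.19 ± 0.44 (0.27 to 2.10, adjusted P = 0.289). Proteins 483177 and 455263 differed by 1.09 ± 0.43 (0.19 to 1.99, adjusted P = 0.326) and 0.99 ± 0.45 (0.05 to 1.93, adjusted P = 0.415). None of these differences passed the adjustment over all genes, yet their intervals reach past a 2-fold difference. On scaled library sizes both Δ*cre1*-43 values exceeded both Δ*cre1*-91 values in each of the 5, most narrowly in 483177, with 9.16 and 16.4 CPM in Δ*cre1*-43 and 8.75 and 3.33 CPM in Δ*cre1*-91; its unscaled counts overlapped.

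The call for 257118 turned on the fit. It passed when only the mutant libraries entered (log2 fold change 1.13, adjusted P = 0.0297), when library size alone set the scale (1.25, adjusted P = 0.0435) and when wild-type replicate 3 was left out (1.13, adjusted P = 0.0489). Without the second Δ*cre1*-91 library, which had 70 counts, its log2 fold change was 0.60 (adjusted P = 0.496). Over all 16 alternatives its adjusted P ran from 0.0297 to 0.530.

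The GH11 xylanase 446893 and the transporter 501637 had the opposite sign, with log2 fold changes of -0.50 (95% interval -1.44 to 0.43) and -0.70 (-1.76 to 0.36). The transposase gene 383339 had -0.42 (-1.76 to 0.91) and 364274 had -0.35 (-0.99 to 0.29). Protein 498952 had -0.79 (-2.12 to 0.55). The remaining 3 (381202, 501933 and 379788) had intervals that run past 2-fold on both sides, so a 2-fold difference between the mutants was not detectable in them at this depth.

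**Figure D2:**
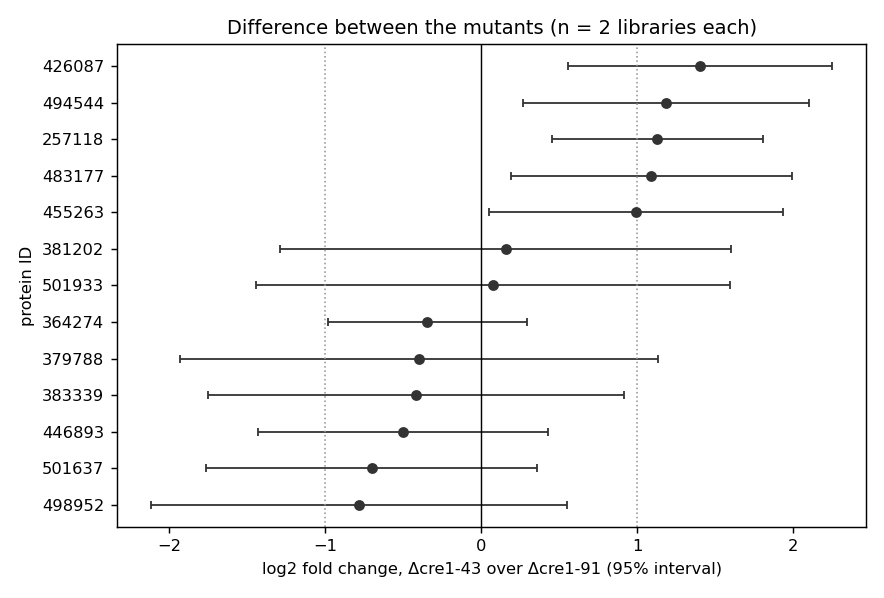
Fitted log2 fold change of Δ*cre1*-43 over Δ*cre1*-91 for the 13 genes (points) with 95% intervals (bars) from edgeR, n = 2 libraries each; dotted lines mark a 2-fold difference. The 5 intervals that clear 0 all lie on the Δ*cre1*-43 side, and 0 of the 13 passed the adjusted threshold.

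Replicate spread was of the same order as these differences. On scaled sizes the 2 libraries of a strain differed by 1.01-fold to 2.63-fold. In Δ*cre1*-43, 2 of the 13 genes lay over 2-fold apart (455263 and 501637), and in Δ*cre1*-91 3 did (257118, 483177 and 383339). The median ratio was 1.59 in Δ*cre1*-43 and 1.33 in Δ*cre1*-91, against 1.27 and 1.29 over all genes of the same count range, in which 7.76% and 8.64% lay over 2-fold apart.

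Each library was left out in turn and the limits applied to the rest, and between 13 and 20 genes were then chosen. Those that also met the limit in the left-out library are the same 13 by construction, so what varies is the number that each library removed. Without the first or second Δ*cre1*-43 library, 17 and 15 genes were chosen; without the first or second Δ*cre1*-91 library, 16 and 17. Leaving out wild-type replicates 1, 2 and 3 gave 16, 20 and 13. The second wild-type library removed the most genes, 7, with a highest count of 12 among them.

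**Figure D3:**
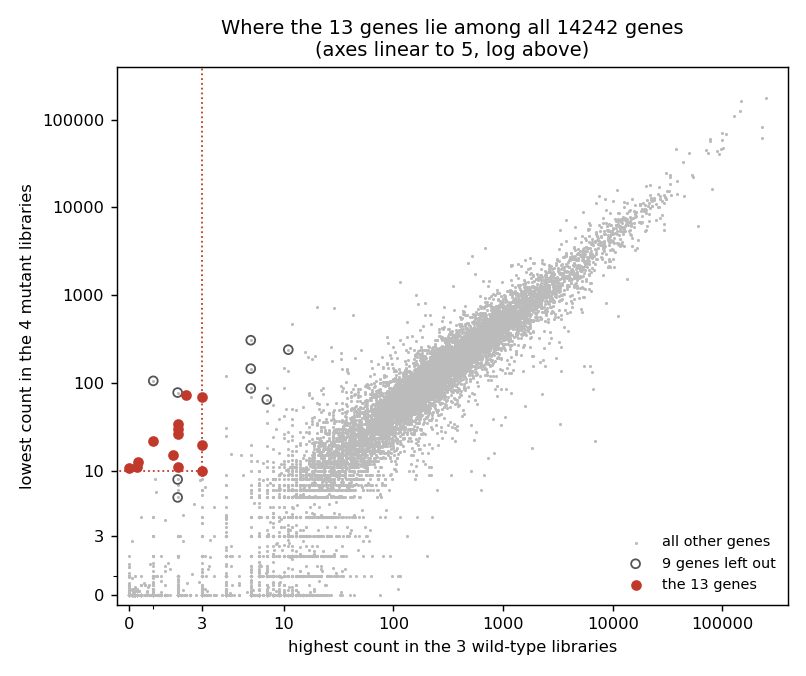
Highest count in the 3 wild-type libraries (x) and lowest count in the 4 mutant libraries (y) for all 14242 genes, on axes linear to 5 and logarithmic above; the dotted lines are the limits. The 13 genes (red) sit in the upper left with lowest mutant counts of 10 to 73.6, and open circles are the 9 genes left out by name.

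The limits cut through a continuous range of counts. Just inside the wild-type limit lay 426087, 257118 and 498952, each with 1 wild-type library at 3, and just inside the mutant limit lay 498952, 381202 and 379788. Just outside the wild-type limit, 479570 had 184 and 325 counts in Δ*cre1*-43 and 186 and 120 in Δ*cre1*-91, against 3, 4 and 0 in wild type. Gene 114412 had 36.5 and 31.8 counts in Δ*cre1*-43 and 25 and 49.6 in Δ*cre1*-91, against 4, 1 and 3 in wild type. Gene 371176, a carbohydrate esterase of family 15 listed under hemicellulose, had 31 and 32.1 counts in Δ*cre1*-43 and 61 and 31 in Δ*cre1*-91, against 4, 3 and 2 in wild type. A single read in 1 wild-type library kept each of these genes out. Just outside the mutant limit were 379657, with a lowest mutant count of 9, 354594, annotated as like a small subunit of serine palmitoyltransferase, with 8, and 383224, with 8.

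The 13 genes were few among the silent ones. At 3 counts or lower in all wild-type libraries were 3107 genes, of which 0.483% met the mutant limit with the left-out genes counted, and 2565 were at 3 or lower in all 7 libraries.

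The 13 genes were scattered over the assembly: they lay on 13 scaffolds, and none was next to another. Of the 24 models next to them in gene order, 10 had 3 counts or fewer in all 7 libraries, against 18.0% of all genes. In 1 of the 24 the level was called higher in at least 1 mutant (6.59% of all genes were), and 2 were called lower (3.99% of all genes were). The gene called higher was 443013, beside 455263, with 2 and 2 counts in Δ*cre1*-43 and 12 and 18 in Δ*cre1*-91, against 0, 2 and 2 in wild type (log2 fold change 3.78 in Δ*cre1*-91, adjusted P = 0.00654, edgeR). That call was lost without the second Δ*cre1*-91 library. Over the 12 next models with at least 10 counts in some library, the median log2 fold change was 0.31 in Δ*cre1*-43 and -0.01 in Δ*cre1*-91, against 0.00 and -0.01 over all such genes.

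Genes 383339, 381202, 501933 and 379788 stood among models that were themselves at 3 counts or fewer in all libraries, while each of these genes had 10 counts or more in every mutant library. Gene 503035, which overlaps 381202, had 1 and 0 counts in Δ*cre1*-43 and 0 and 0 in Δ*cre1*-91, against 1, 3 and 2 in wild type. The next model to 498952 was the opposite case. Gene 451504 had 4790 and 9140 counts in Δ*cre1*-43 and 5561 and 4467 in Δ*cre1*-91, against 14852, 14014 and 13492 in wild type, and was called lower in Δ*cre1*-91 (adjusted P = 0.00014, edgeR).

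Other genes called higher in both mutants lay on the scaffolds of 7 of the 13. Over all genes, 4.82% were called higher in Δ*cre1*-43 and 4.97% in Δ*cre1*-91. How often scaffolds of these sizes hold such genes was not counted, so nothing is read from the 7. Scaffold 24, with 97 models, carried 8 besides 455263, of which the nearest, 361817, was 4320 bp away with 2 models between. Scaffold 96, with 47 models, carried 426087 and 7 others. On it, 6 formed an unbroken run from the 7th to the 12th model, with 479570 at its start, but 11 models and 27091 bp lay between the run and 426087. The models next to 426087 had reads in every library and were not called. Of these, 479585 overlaps 426087 on the same strand. It had 29.3 and 40.9 counts in Δ*cre1*-43 and 30 and 44 in Δ*cre1*-91, against 53.3, 36 and 57 in wild type. How reads shared by the overlapping models were counted is not given in the sources used here.

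**Figure D4:**
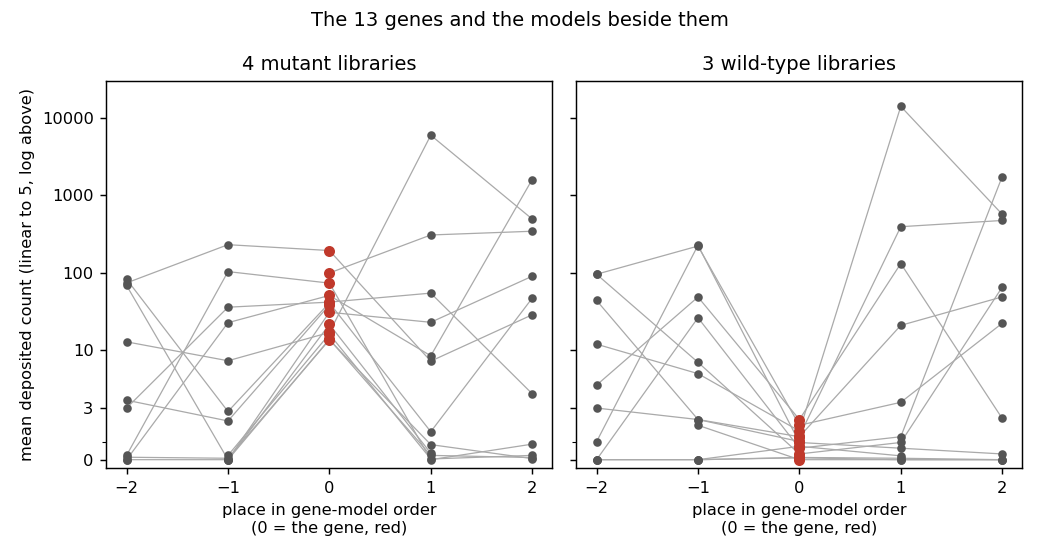
Mean deposited count of each of the 13 genes (red, place 0) and of the 2 models on either side in gene order (grey, joined by lines per gene), in the 4 mutant libraries (left) and the 3 wild-type libraries (right), on an axis linear to 5 and logarithmic above. The grey points cover a wide range in both panels, and the red points lie under 3 counts in wild type.

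Gene structure differed within the 13. They had 1 to 15 exons (median 6) and coding lengths of 507 to 3714 bases (median 852), against medians of 4 exons and 1056 bases over all genes. The 3094 other genes near-silent in wild type had medians of 2 exons and 597 bases, and the 336 genes called higher in both mutants with at least 10 counts in every wild-type library had 4 and 1005. A model overlap was found for 8 of the 13 (61.5%), 4 of them on the same strand, against 59.5% of all genes. The median scaffold held 21 models for the 13 genes, against 17 for the other near-silent genes and 40 for all genes, and 30.8% of the 13 were among the first or last 2 models of their scaffold, against 19.0% of all genes and 40.7% of the other near-silent genes. These shares rest on 13 genes and were not tested.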

How the data were processed

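The authors trimmed the QuantSeq reads, aligned them with STAR 2.6.1a to the *C. cinerea* Amut1Bmut1 genome, and deposited estimated counts per gene from featureCounts on gene models lengthened by 400 bp at their 3′ end; many of the values are not whole. The strand setting and the treatment of reads that hit several places or genes are not given in the sources used here. The deposited table of scaled values was not used. Estimated counts were rounded to whole numbers and all 14242 genes fitted in edgeR 4.0.16 (R 4.3.3), with TMM scaling, 1 coefficient per strain over the 7 libraries, the quasi-likelihood test and Benjamini-Hochberg adjustment over all genes; the design had been laid out for whole counts. A call needs adjusted P of 0.05 or lower and a 2-fold change. limma 3.58.1 (voom) and DESeq2 1.42.0, other scalings, filters, limits and leaving out each library were alternatives. CPM and folds of the 13 genes use the TMM-scaled library sizes and the rounded counts, while the limits and the counts printed per library are as deposited; a wild-type sum that rounds to 0 in each library is replaced by 3 counts. The fits were tested on simulated data, with changes planted only in genes of a higher wild-type level than any of the 13. That test therefore says nothing about calls at the wild-type levels of the 13 genes. Depth, 6232853 to 10784958 assigned counts, bounds how small a level can be seen.

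Named are all 13 genes, by a rule that takes the annotated genes, the 10 with the highest level, the 5 with the smallest P between the mutants and the 3 nearest to each limit, inside and outside; other genes are named as overlapping, adjacent or of the same enzyme family and were chosen after their values were seen. The genes and lists were chosen with earlier results of these data known. Functions come from the study's lists and the part of its domain table at hand. No sequences are printed, since no sequence table or genome of this strain was used here.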

Additional observations from a re-analysis of the deposited data

How the results depend on the processing

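The number of genes chosen depended on the limits and on depth. A wild-type limit of 1 count gave 4 genes and of 5 counts 23, a mutant minimum of 5 counts gave 24 and of 20 counts 7, and only models that overlap no other model gave 5. With counts scaled to the smallest library 16 genes met the unchanged limits, of which 11 were among the 13. Leaving out 1 library gave 13 to 20, with 20 without the second wild-type library. The number of the 13 called between the mutants was 1 (257118) with library size only, with only the groups compared and without the third wild-type library (0 to 1 over all libraries left out), and 0 under the other 14 alternatives; library size only moved the median of all genes in that contrast by 0.12 on the log2 scale. Its log2 fold change was 1.25 with library size only and 1.13 with only the groups compared or without the third wild-type library. limma voom and the fit with a filter for low counts called 0 of all genes in that contrast, so nothing is read from their 0 of the 13. Fits without 1 mutant library leave 1 library in that strain, and nothing is read from their calls. The number of next models called higher was 2 with limma voom, 2 with no fold limit and 0 to 1 over the libraries left out. Without the first Δ*cre1*-43 library, 12 of the 13 were called higher in Δ*cre1*-43; the log2 fold change of 498952, the one not called, was then 2.81, from the 1 library left and on counts that chose the gene. The 5 genes with an unadjusted P under 0.05 between the mutants kept the higher level in Δ*cre1*-43 under all 16 alternatives run. The cause of these changes was not tested.

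The replicate numbers were not taken to pair the libraries, since no label ties the numbers to a shared culture or day. Over 9100 genes, deviations of same-numbered libraries had r = -0.21 between the mutants. They had r = 0.13 and 0.15 between Δ*cre1*-43 and wild type, and -0.05 and -0.05 between Δ*cre1*-91 and wild type. With 2 libraries per mutant, these values cannot show whether a batch was shared. With the replicate block, 53 genes were called between the mutants, against 35, and 0 of the 13 were. Genes with few reads limit all of this, since 10 counts are 1.18 to 1.5 CPM in the mutant libraries.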

Other observations

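The reverse pattern, 3 counts or lower in each of the 4 mutant libraries and 10 or higher in each wild-type library, was met by 2 genes, neither with an annotation. Gene 544254 had 0 and 2 counts in Δ*cre1*-43 and 1 and 3 in Δ*cre1*-91, against 23, 40 and 19 in wild type. Gene 459089 had 3 and 0 counts in Δ*cre1*-43 and 1 and 3 in Δ*cre1*-91, against 11, 15 and 10.7 in wild type. The wild-type libraries hold more counts each and number 3, against 4 mutant libraries, so both patterns do not ask for the same level.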
